A study of Mus musculus with 8 samples.

Results

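Hmox1, Nqo1, Gclc, Gclm, Srxn1, Txnrd1, Slc7a11, Txn1, Prdx1 and Osgin1, all listed as targets of the transcription factor Nrf2, were followed by their gene symbols through 6 classes of mouse islet cells. These are 10 of the 30406 genes that the files of both replicates share, and all 10 were found. They were listed by name as known targets, with earlier results of these data known, and the question was whether the other targets follow Hmox1. Pancreatic islets of male C57BL/6 mice aged 12 to 16 weeks were pooled from 10 mice per replicate and divided into 4 groups of intact islets, which were held in culture for 18 h. The groups were untreated islets, islets with 10 U/mL interleukin (IL)-1β plus 150 U/mL interferon (IFN)-γ (cytokines), islets with the same cytokines plus 2 mM of NMMA, an inhibitor of nitric oxide synthase (cytokines plus NMMA), and islets with 2 mM NMMA (NMMA alone). Each group had 2 libraries, 1 per pool, of droplet-based single-cell RNA. No engineered allele is named for the mice, and comparisons are between 2 and 2 libraries except in δ-cells, where cytokines have 1.

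Nrf2 is held in the cytoplasm by Keap1, which presents it to a ubiquitin ligase. When oxidants or electrophiles modify Keap1, Nrf2 escapes degradation, pairs with a small Maf protein and binds antioxidant response elements in the DNA, where the repressor Bach1 competes for the same sites. Its targets make and use glutathione and thioredoxin, repair oxidized peroxiredoxins and break down heme. β-Cells are known for low levels of several antioxidant enzymes, and cytokines make them produce nitric oxide through the inducible synthase Nos2.

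Gene positions are from the GRCm38 annotation. Hmox1 (heme oxygenase 1) lies at chr8:75093621-75100589 on the plus strand, Nqo1 (a quinone reductase) at chr8:107388225-107403206 on the minus strand, and Osgin1 (oxidative stress-induced growth inhibitor) at chr8:119434124-119446256 on the plus strand. Gclc and Gclm, the catalytic and modifier subunits of the ligase that starts glutathione synthesis, lie at chr9:77754535-77794485 and chr3:122245557-122270732, both on the plus strand, and Slc7a11, the cystine importer, at chr3:49892526-50443614 on the minus strand. Srxn1 (sulfiredoxin) is at chr2:152105516-152111376, Txnrd1 (thioredoxin reductase 1) at chr10:82833951-82897712 and Prdx1 (peroxiredoxin 1) at chr4:116685544-116700822, all on the plus strand, and Txn1 (thioredoxin 1) at chr4:57943373-57956411 on the minus strand. Of the genes that the files list, Eid3 overlaps Txnrd1 on the same strand and Gm37854 overlaps Slc7a11 on the opposite strand, so the counts of these 2 members carry that uncertainty.

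The promoters that hold letters of an antioxidant response element are shown because such an element is where Nrf2 binds. A RefSeq table of GRCm38 promoters, from 250 bases before to 50 after a transcription start, held 8 of the 10 members (all but Hmox1 and Gclc). The core TGACNNNGC, searched on both strands, occurred in 4 of these 8 genes, and in 14.0% of the 27025 genes of the table. The longer form TGANTCAGC, close to the sites of small Maf proteins, occurred in 3 of 8 and in 1.37% of all, and a run that fits both forms is counted in each. Capitals mark the matched letters, and all 5 runs are given on the plus strand. Gclm (chr3:122245307-122245606) and Srxn1 (chr2:152105274-152105573) are the whole promoters of the members with the most regular rise below, and Txnrd1 (chr10:82859084-82859152), Prdx1 (chr4:116685436-116685504) and Osgin1 (chr8:119437018-119437086) are stretches around the match:
Gclm: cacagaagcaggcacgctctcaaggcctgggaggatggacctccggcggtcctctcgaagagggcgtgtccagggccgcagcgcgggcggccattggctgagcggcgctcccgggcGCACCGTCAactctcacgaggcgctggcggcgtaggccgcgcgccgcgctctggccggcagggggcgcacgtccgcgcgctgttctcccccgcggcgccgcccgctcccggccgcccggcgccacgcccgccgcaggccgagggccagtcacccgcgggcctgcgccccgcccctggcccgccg
Srxn1: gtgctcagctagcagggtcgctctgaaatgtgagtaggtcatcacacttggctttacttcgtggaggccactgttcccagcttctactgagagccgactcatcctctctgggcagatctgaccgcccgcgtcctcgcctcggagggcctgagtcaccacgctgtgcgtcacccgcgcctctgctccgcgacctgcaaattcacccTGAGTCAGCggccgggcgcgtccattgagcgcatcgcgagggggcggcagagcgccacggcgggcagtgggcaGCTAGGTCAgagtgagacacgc
Txnrd1: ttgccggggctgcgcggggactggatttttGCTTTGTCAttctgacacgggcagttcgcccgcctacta
Prdx1: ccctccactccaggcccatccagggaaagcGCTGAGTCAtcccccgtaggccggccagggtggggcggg
Osgin1: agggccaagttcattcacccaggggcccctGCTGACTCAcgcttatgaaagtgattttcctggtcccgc
The match began 134 bases before the transcription start of the table in Gclm, 133 in Prdx1, 99 in Osgin1, 92 in Txnrd1 and 45 in Srxn1. Srxn1 held another match after its start. In Txnrd1 and Osgin1 the start used is not the first base of the gene. Their matches, at chr10:82859114-82859122 and chr8:119437048-119437056, lie inside the gene positions given above. The Prdx1 letters fit both forms. A match of letters is a description of the window and no evidence that a protein was bound.

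Each library held 26549922 to 50731370 unique molecular identifiers (UMIs, tags that count single RNA molecules), and 937 to 2149 cells per library passed the filters. No 2 libraries shared more than 2 cell barcodes. Cell classes were rebuilt from markers: 6345 β-cells, 634 α-cells, 334 δ-cells, 324 macrophages, 282 endothelial cells and 220 mesenchymal cells. UMIs were summed per class and library, and levels are UMIs per 1000000 of that sum (CPM) after TMM scaling, a scaling that sets the typical gene of a class equal between libraries. A gene was called at an adjusted p of 0.05 from edgeR's quasi-likelihood test over all genes tested in the class. Within a class, the groups lay in different clusters: 100% and 80.0% of the α-cells of the cytokine libraries were in a cluster led by Hspa1a and Gadd45b, 87.9% and 97.8% of those with cytokines plus NMMA in another led by Saa3, and 94.6% and 93.9% of untreated α-cells in 2 others, 1 per replicate. β-Cells, δ-cells, macrophages and endothelial cells were divided between clusters by cytokines as well, and mesenchymal cells formed 1 cluster. In sums of cells, fewer RNA molecules per cell and fewer cells that hold the RNA cannot be told apart.

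Cytokines raised 5 of the 10 targets in β-cells and lowered none. Hmox1 and Slc7a11 rose the most, and Nqo1, Gclm and Srxn1 rose about as much as each other. Gclc, Txnrd1, Prdx1, Txn1 and Osgin1 did not pass the test. In all, 23.7% of the 12776 genes tested in β-cells were called higher with cytokines and 46.2% in either direction. The median log2 change of the 10 targets was 0.73, beside 0.0011 over all genes tested.

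Hmox1, which opens the heme ring and releases iron, carbon monoxide and biliverdin, was at 48.6 and 38.9 CPM in the untreated libraries of replicates 1 and 2. It was at 554 and 208 with cytokines, 249.8 and 109 with cytokines plus NMMA, and 79.9 and 61.4 with NMMA alone. Both cytokine libraries lay above both untreated libraries, and within each replicate the level with cytokines plus NMMA lay between them. The log2 fold change with cytokines was 3.12 (SE 0.64, n = 2 and 2, adjusted p = 0.0127). It was 3.30 (adjusted p = 0.076) without untreated replicate 1 and 2.96 (adjusted p = 0.080) without untreated replicate 2, and fell to 2.25 (adjusted p = 0.023) without cytokines replicate 1.

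The glutathione genes differed among themselves. Gclm stood at 131 and 130.3 in untreated β-cells and at 308 and 257 with cytokines, a log2 rise of 1.11 (SE 0.15, adjusted p = 0.000505). Slc7a11 stood at 2.12 and 2.30 untreated and at 14.1 and 7.94 with cytokines, a log2 rise of 2.33 (SE 0.36, adjusted p = 0.00128). Gclc, the catalytic partner of Gclm, stood at 19.3 and 23.2 untreated and at 26.6 and 26.2 with cytokines. Its groups did not overlap, but the log2 change of 0.31 (SE 0.14) had an adjusted p of 0.0882, and of 0.0184 when replicates were paired.

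Of the thioredoxin and peroxiredoxin genes, Srxn1, which restores peroxiredoxins oxidized beyond their normal cycle, was the one that passed. It stood at 36.8 and 42.0 untreated and at 85.9 and 79.4 with cytokines (log2 1.07, SE 0.16, adjusted p = 0.000773). Txnrd1, which recharges thioredoxin with electrons from NADPH, stood at 97.2 and 122 untreated and at 138 and 149.9 with cytokines (log2 0.39, SE 0.15, adjusted p = 0.0540). Prdx1, a peroxidase that thioredoxin recharges, stood at 223 and 187 untreated and at 291 and 232 with cytokines (log2 0.35, SE 0.20, adjusted p = 0.180). With paired replicates, both were called, Txnrd1 at an adjusted p of 0.00161 and Prdx1 at 0.0028. Txn1 itself stood at 135 and 121 untreated and at 135 and 134 with cytokines (log2 0.08, SE 0.18, adjusted p = 0.763), and was not called in either fit.

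Nqo1, a reductase of quinones that serves widely as the reporter of Nrf2 activity, was low in β-cells. It stood at 2.51 and 2.97 untreated and at 7.13 and 5.11 with cytokines, a log2 rise of 1.18 (SE 0.35, adjusted p = 0.0234). That call was lost without untreated replicate 1 (adjusted p = 0.13), untreated replicate 2 (adjusted p = 0.064) or cytokines replicate 1 (adjusted p = 0.14), and with at most 5% mitochondrial UMIs (adjusted p = 0.074). Osgin1 lay between 6.77 and 9.67 in all 8 libraries, and its log2 change of 0.02 (SE 0.17) had an adjusted p of 0.921. With replicates paired, 8 of the 10 targets and 62.9% of all genes were called with cytokines.

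**Figure D1:**
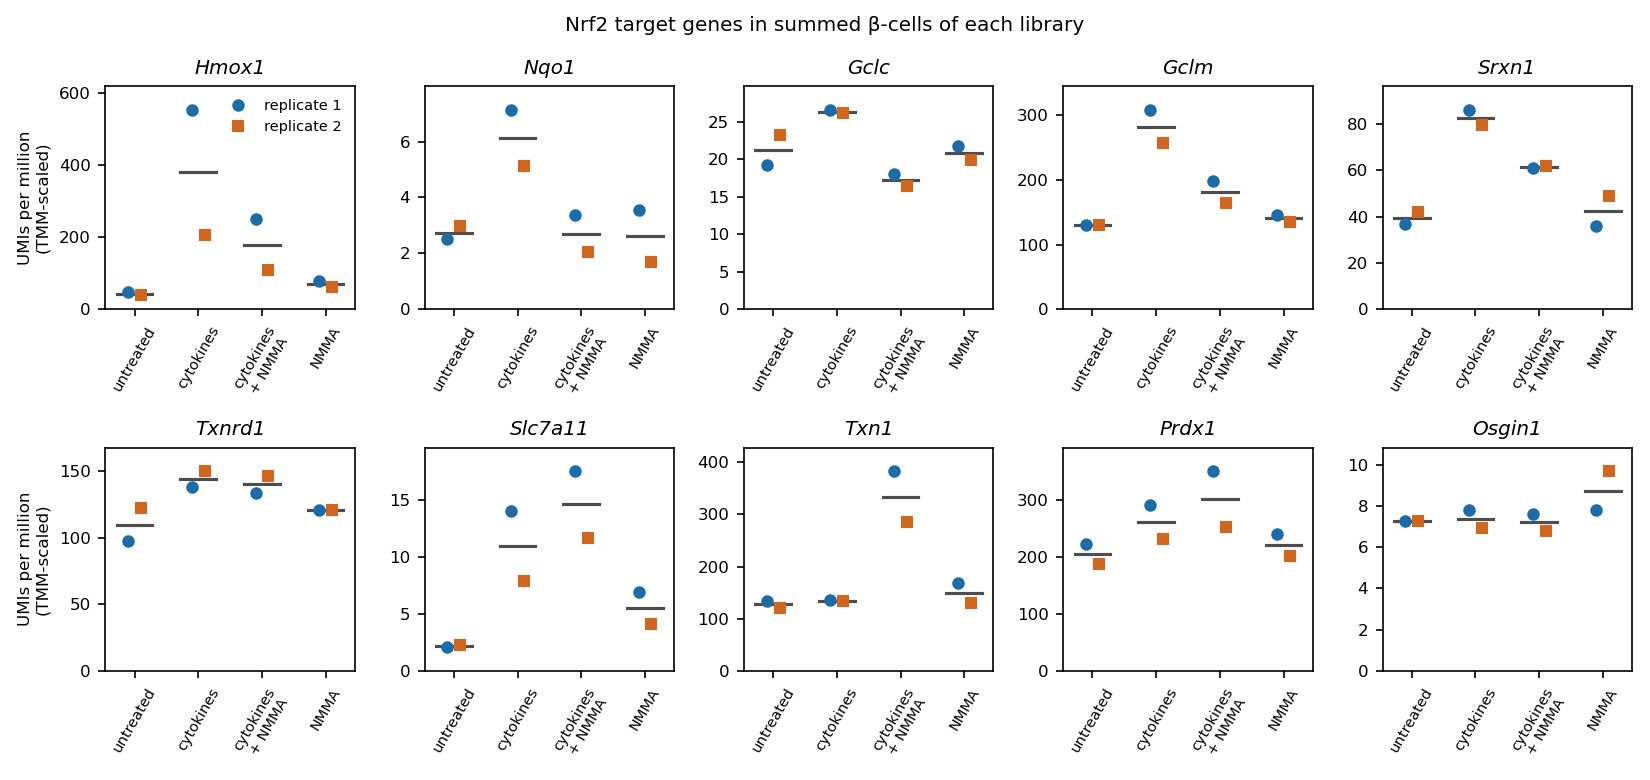
Level of each of the 10 Nrf2 targets in the summed β-cells of each of the 8 libraries, as TMM-scaled CPM on a linear axis from 0 with its own range for each gene. Points are libraries, shaped by replicate, and the line in each group is the mean of its 2 libraries. Hmox1, Nqo1, Gclc, Gclm, Srxn1, Txnrd1, Slc7a11 and Prdx1 stand higher in both cytokine libraries than in both untreated libraries. Of these, Gclc, Txnrd1 and Prdx1 did not pass the test, and 23.7% of all genes tested were called higher. The share of all genes that stand apart in this way was not counted. Txn1 stands highest in the 2 libraries with cytokines plus NMMA.

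With NMMA added to cytokines, 3 of the 10 targets were called. In β-cells Gclc and Gclm fell, Txn1 rose, and the other 7, Hmox1 among them, did not pass the test. Of all genes tested, 19.3% were called in this comparison, 10.3% higher and 8.98% lower, and the median log2 change of the targets was -0.23 beside 0.012 over all genes. Gclm fell from 308 and 257 with cytokines to 199 and 165 (log2 -0.64, SE 0.15, adjusted p = 0.0213), and its groups did not overlap. Gclc fell from 26.6 and 26.2 to 18.0 and 16.4 (log2 -0.61, SE 0.14, adjusted p = 0.0175). Scaling by total UMIs shifted the median gene by a log2 of 0.21 in this comparison, so that 85.5% of calls were higher, against 53.5% with TMM. That scaling ended both calls, at adjusted p of 0.065 for Gclm and 0.079 for Gclc. So did leaving out cytokines replicate 1 (0.13 and 0.085) or cytokines plus NMMA replicate 2 (0.14 and 0.10), and, for Gclc, cytokines plus NMMA replicate 1 (0.062).

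For Hmox1 the log2 difference between cytokines plus NMMA and cytokines was -1.09 (SE 0.59, adjusted p = 0.264), and it passed with no filter on low counts (adjusted p = 1.3e-06). Both replicates showed the lower level, but the 2 cytokine libraries were themselves 554 and 208, and the level of 249.8 with cytokines plus NMMA in replicate 1 lay above the 208 of cytokines alone in replicate 2. Pairing the replicates left it uncalled (-1.06, adjusted p = 0.104). Nqo1 differed by -1.16 (adjusted p = 0.0534) and Srxn1 by -0.43 (adjusted p = 0.0875), and both were called when paired, at 0.00123 and 0.00555. Slc7a11 stood at 17.5 and 11.7 with cytokines plus NMMA, against 14.1 and 7.94 with cytokines (log2 0.41, SE 0.33, adjusted p = 0.419), and was called higher when paired (adjusted p = 0.0471). Paired, 6 targets were called, 2 higher and 4 lower, among 40.6% of all genes.

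Txn1 went its own way. It stood at 382 and 285 with cytokines plus NMMA, against 135 and 134 with cytokines and 135 and 121 untreated. The log2 rise over cytokines was 1.31 (SE 0.18, adjusted p = 0.00387), and that over untreated islets was 1.38 (SE 0.18, adjusted p = 0.000723). Both calls held in every alternative run on β-cells.

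Against untreated islets, cytokines plus NMMA left 3 targets higher in β-cells, Slc7a11 (log2 2.74, SE 0.36, adjusted p = 0.00112), Txn1 and Srxn1 (log2 0.64, SE 0.16, adjusted p = 0.0188), and none lower, while 12.9% of all genes were called higher. Srxn1 lost that call without untreated replicate 1 (adjusted p = 0.15) or either library of cytokines plus NMMA (0.075 and 0.068), and at 5% mitochondrial UMIs (0.066). Hmox1 was at log2 2.03 (SE 0.61, adjusted p = 0.0734; 0.010 in DESeq2), Gclm at 0.48 (SE 0.15, adjusted p = 0.0507) and Prdx1 at 0.56 (SE 0.20, adjusted p = 0.0765). When paired, Hmox1 (1.94, adjusted p = 0.0281), Gclm, Prdx1 and Txnrd1 passed as well, so that 7 targets were called among 40.8% of all genes. The comparisons with cytokines and with cytokines plus NMMA share their untreated or their cytokine libraries.

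NMMA alone called no gene at all in β-cells, while 935 of the 12776 genes had an unadjusted p under 0.05. Slc7a11 stood at 6.97 and 4.15 with NMMA alone, above the 2.12 and 2.30 of untreated islets (log2 1.34, SE 0.37, adjusted p = 0.517). Paired, it was the 1 target called (log2 1.41, adjusted p = 0.00267), among 3.51% of all genes. Hmox1 was at log2 0.69 (SE 0.59, adjusted p = 0.888).

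Within a library, Hmox1 was uneven between β-cells. After each cell was thinned to 10000 UMIs, 17.3% and 22.2% of untreated β-cells of replicates 1 and 2 held an Hmox1 UMI (exact 95% interval in replicate 1, 15.5 to 19.3%, which covers counting error alone). With cytokines the shares were 66.0% and 51.7%, with cytokines plus NMMA 53.2% and 45.4%, and with NMMA alone 23.6% and 28.9%. The order of the groups was that of the levels in both replicates. Without thinning, the shares were 26.2% and 37.4% untreated and 80.1% and 69.8% with cytokines, at median depths of 20422 to 29822 UMIs per cell over the 8 libraries. No islet class without Hmox1 served as a background. In α-cells, thinned to 9000 UMIs, 6.49% and 7.23% of untreated cells held a UMI, with median depths of 12221 and 16025, and in δ-cells, at 7000 UMIs, 5.48% and 15.8% did. In cytokines replicate 1 the highest cell held 137 thinned UMIs, and the tenth of cells with the most Hmox1 held 55.7% of its UMIs, against 86.3% in untreated replicate 1.

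**Figure D2:**
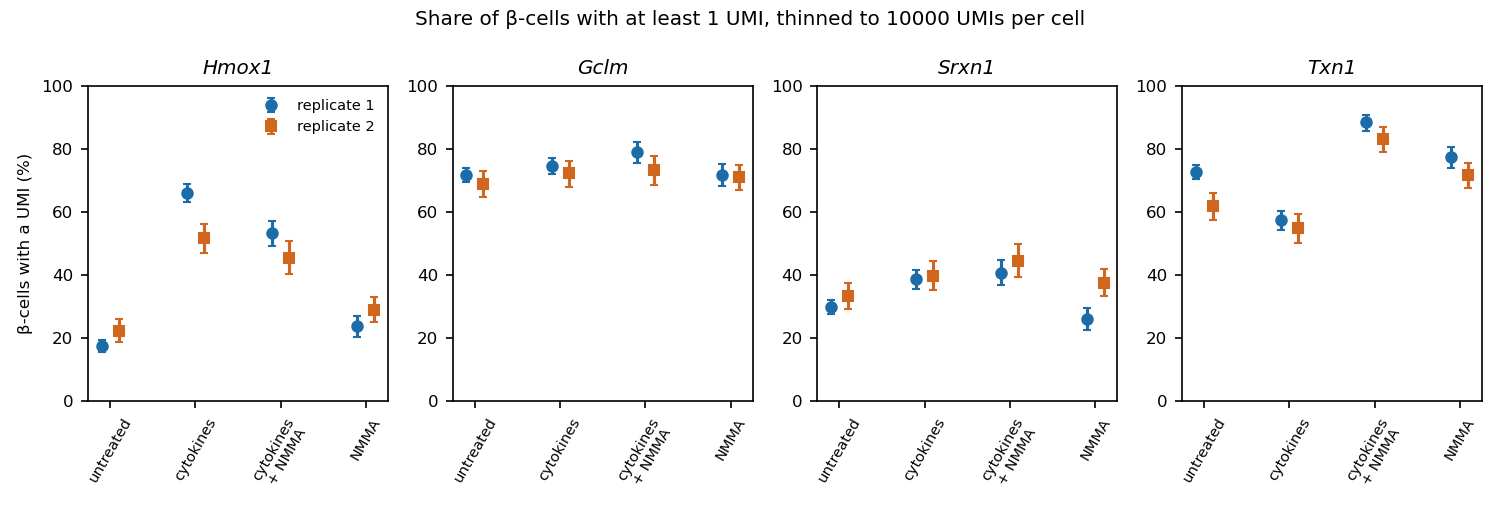
Percent of β-cells with at least 1 UMI of a target after thinning to 10000 UMIs per cell, for each of the 8 libraries, with exact 95% binomial intervals. The Hmox1 share was 66.0% and 51.7% with cytokines against 17.3% and 22.2% untreated, while the share with Gclm stayed between 69.0% and 79.0% in all 8 libraries.

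Macrophages held far more Hmox1 than β-cells. In the β-cell sums, 11 macrophage markers summed to between 0.186% and 0.825% of their level in macrophages of the same library. From 8 to 10 of the 11 had UMIs there, and their sum was 72.5 and 48.4 CPM untreated, 125 and 70.0 with cytokines, 191 and 93.7 with cytokines plus NMMA and 45.8 and 38.8 with NMMA alone. That percentage of the macrophage Hmox1 level came to 9.35 of the 494 Hmox1 CPM, on the scale of all UMIs, in cytokines replicate 1, 6.29 of 186 in cytokines replicate 2, 7.35 of 49.6 in untreated replicate 1 and 2.10 of 41.3 in untreated replicate 2. It came to 21.5 of 255 in cytokines plus NMMA replicate 1. Cd74, also on the list of macrophage markers, was left out of the 11. In β-cells it stood at 2.82 and 5.54 CPM untreated, 75.3 and 30.3 with cytokines and 149 and 76.2 with cytokines plus NMMA. In macrophages it stood at 5502 and 6197, 7529 and 7040, and 8775 and 9355 in the same groups. One β-cell cluster led by heat shock genes held more Hmox1 than the other β-cells where cytokines were absent, by far in replicate 1 and little in NMMA alone replicate 2. It held 557 CPM in untreated replicate 1 and 447 with NMMA alone in replicate 1, against 36.9 and 45.9 in the other β-cells. In untreated replicate 2 it held 84.6, against 34.7 in the other β-cells, with NMMA alone in replicate 2 80.2 against 63.6, and with cytokines 99.6 and 76.8, against 515 and 206. Without this cluster, an alternative chosen after seeing the data, the rise of Hmox1 with cytokines plus NMMA over untreated islets passed (log2 2.40, adjusted p = 0.037).

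Whether the other targets sit in the same β-cells as Hmox1 was asked within libraries. At 10000 UMIs per cell, 2167 β-cells had at least 1 Hmox1 UMI and 3681 had none, and 941 of the former had exactly 1, so the sides are ranges of one measure and not cell types. Hmox1 chose the sides and was left out. In cells with Hmox1, 5 of the other 9 targets were higher and none was lower, while 2.50% of the 10671 genes tested were called higher and 4.84% in either direction. The library was a block in this test.

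Gclm was higher in the cells with Hmox1 in 8 of 8 libraries (log2 0.71, SE 0.08, adjusted p = 1.02e-05). In the cytokine libraries it stood at 374 and 314 in cells with Hmox1 and at 138 and 185 in those without, and in the untreated libraries at 195 and 191 with and 124 and 123 without. With cytokines plus NMMA it stood at 228 and 189 with and 167 and 149 without, and with NMMA alone at 208 and 193 with and 130.5 and 123 without. Its level in β-cells without Hmox1 thus ran from 123 to 185 over all groups. Srxn1 was higher in 8 of 8 libraries too (log2 0.75, SE 0.09, adjusted p = 1.34e-05), at 105 and 107 with against 41.7 and 58.4 without Hmox1 in the cytokine libraries, and at 51.1 and 65.7 against 34.0 and 38.7 in the untreated libraries. Gclc was higher in 7 of 8 libraries (log2 0.59, SE 0.12, adjusted p = 0.0013) and Osgin1 in 8 of 8 (log2 0.84, SE 0.16, adjusted p = 0.00077). Osgin1, which cytokines left level in the sums, stood at 9.64 to 10.04 with and 3.86 to 7.44 without Hmox1 in the cytokine libraries, and at 10.43 and 10.42 with and 5.78 and 6.25 without in the untreated libraries. At 5000 UMIs per cell the Osgin1 difference was 0.44 (adjusted p = 0.35).

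Txnrd1 differed by 0.27 (SE 0.07, adjusted p = 0.027), a call that DESeq2 (adjusted p = 0.14) and leaving out any of 5 libraries ended: untreated replicate 1 (0.099) and 2 (0.081), cytokines replicate 1 (0.069), cytokines plus NMMA replicate 1 (0.054) and NMMA alone replicate 1 (0.13). Slc7a11 differed by 1.13 (adjusted p = 0.060) and Nqo1 by 0.69 (adjusted p = 0.15), and neither passed over the 8 libraries. In the 2 cytokine libraries by themselves both did, Slc7a11 at 2.45 (adjusted p = 5.3e-08) and Nqo1 at 1.68 (adjusted p = 0.0026), as did Gclc, Gclm, Srxn1 and Txn1 (0.78, adjusted p = 6.1e-07), while 9.66% of genes were called there. That fit holds only 2 libraries, so its p-values carry little of the spread between pools and serve as a description. Txn1 over all 8 libraries was at 0.12 and Prdx1 at -0.07, and neither passed.

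**Figure D3:**
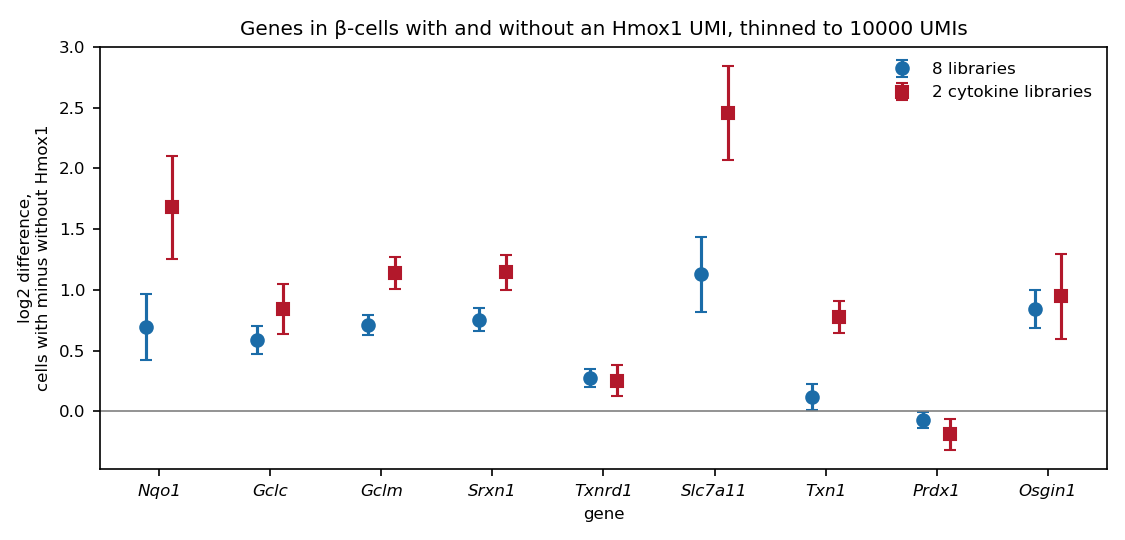
Log2 difference of each other target between β-cells with and without an Hmox1 UMI at 10000 UMIs per cell, over 8 libraries and over the 2 cytokine libraries, with bars of 1 SE. Gclm, Srxn1, Gclc and Osgin1 lie between 0.59 and 0.84 over 8 libraries, and Prdx1 lies near 0.

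Other genes that stood higher in the cells with Hmox1 came from several lists. Of all genes tested, 2.50% were called higher and 2.34% lower over the 8 libraries. In the 2 cytokine libraries by themselves, 4.42% were called higher and 5.24% lower. Of 10 Nrf2 regulators 3 were higher and none was lower, Bach1 (log2 0.44, adjusted p = 0.010), Mafg (0.29, adjusted p = 0.014) and Sqstm1 (0.33, adjusted p = 0.011). In the 2 cytokine libraries by themselves Bach1 was higher and Maff lower (-0.56, adjusted p = 0.046). Of 24 other Nrf2 targets tested 5 were higher and none was lower, Akr1b8, an aldo-keto reductase (1.79, adjusted p = 1e-05), Ugdh (0.64), Gstp1 (0.46), Gpx2 (0.42) and Me1 (0.34). Of 15 genes of the integrated stress response, which Atf4 directs, 9 were higher and 6 did not pass, with Trib3 at 0.82, Atf3 at 0.72 and Atf4 at 0.29. In the 2 cytokine libraries by themselves 7 of the 15 were higher, Trib3 among them, while Atf3 (adjusted p = 0.065) and Atf4 (adjusted p = 0.34) did not pass. Of 12 heat shock genes 3 were higher over the 8 libraries, Hsph1 (0.65), Hsp90aa1 (0.34) and Bag3 (0.29). In the 2 cytokine libraries none of these 3 passed, Hspb1 was higher (0.41, adjusted p = 0.024), and Hspa1a (-0.62, adjusted p = 0.00067), Hspa1b (-0.47, adjusted p = 0.012) and Dnajb1 (-0.37, adjusted p = 0.038) were lower in the cells with Hmox1. Nos2 did not pass over the 8 libraries (-0.37, adjusted p = 0.38) and was lower in the cells with Hmox1 in the 2 cytokine libraries (-0.74). The p-values from the 2 cytokine libraries are a description here too.

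In α-cells, which secrete glucagon, Hmox1 changed with cytokines and again when NMMA was added to them. It stood at 14.5 and 9.76 CPM untreated, 227 and 149 with cytokines, 42.9 and 22.7 with cytokines plus NMMA, and 8.47 and 12.1 with NMMA alone. The groups with cytokines, with cytokines plus NMMA and without cytokines did not overlap. Ins2, an insulin gene scaled to the same total per cell, averaged 55.9 and 59.0 in the clusters of most untreated α-cells. It averaged 150 in the Saa3-led cluster and 267 in that led by Hspa1a and Gadd45b. In the β-cell clusters of most cytokine cells it averaged 2561 and 2524. What β-cell RNA adds to Hmox1 in α-cells was not tested. The log2 rise of Hmox1 with cytokines was 3.96 (SE 0.34, adjusted p = 1.3e-06), and with NMMA added Hmox1 fell by 2.51 on the log2 scale (SE 0.30, adjusted p = 0.000185). Both calls held in every alternative run. Cytokines plus NMMA remained above untreated by 1.45 (SE 0.36, adjusted p = 0.0191, where 8.41% of all genes were called), a call lost without untreated replicate 2 (adjusted p = 0.22) or cytokines plus NMMA replicate 1 (0.22), and at 5% mitochondrial UMIs (0.16).

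Of the 8 targets tested in α-cells (Nqo1 and Osgin1 were below the filter), 4 rose with cytokines and none fell, while 13.9% of the 9603 genes were called higher and 23.4% in either direction. Gclm rose from 179 and 167 to 263 and 319 (log2 0.76, SE 0.20, adjusted p = 0.00896). Slc7a11, at 0 and 1.63 untreated and 11.3 and 14.2 with cytokines, passed at an adjusted p of 0.0103. Srxn1 rose from 36.3 and 29.8 to 54.8 and 52.2 (log2 0.70, SE 0.24, adjusted p = 0.0467) and lost that call without either untreated library (0.068 and 0.27), either cytokine library (0.11 and 0.10) or either library of cytokines plus NMMA (0.0501 and 0.061). It was also lost in DESeq2 (0.23), with predicted doublets removed (0.067), at 5% mitochondrial UMIs (0.072) and with no filter on low counts (0.0504). On the scale of total UMIs the median α-cell gene shifted by a log2 of -0.46 with cytokines, relative to TMM. On the total scale Gclm (0.29, adjusted p = 0.29) and Srxn1 (0.23, adjusted p = 0.50) were not called, Txn1 (-0.70, adjusted p = 0.016) and Prdx1 (-0.77, adjusted p = 0.013) were called lower, and the calls over all genes were 20.5% higher, against 59.2% with TMM. The same shift in β-cells was -0.22, with 33.5% of calls higher on the total scale and 51.4% with TMM. Gclm in α-cells also missed the threshold without untreated replicate 2 (0.084) or cytokines replicate 2 (0.056), and Slc7a11 without untreated replicate 1 (0.061) or cytokines replicate 2 (0.076). At 5% mitochondrial UMIs Slc7a11 was below the filter.

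With NMMA added to cytokines, Gclc in α-cells fell from 32.2 and 26.5 to 7.80 and 14.2 (log2 -1.38, SE 0.34, adjusted p = 0.0137), below the 27.6 and 27.7 of untreated cells (log2 -1.31, SE 0.32, adjusted p = 0.0106). Txn1 rose from 199.8 and 256 to 683 and 667 (log2 1.56, SE 0.20, adjusted p = 0.000168), against 266 and 272 untreated. With Hmox1, 3 of 8 targets were called in this comparison, among 11.3% of all genes, 5.41% higher and 5.90% lower. On the total scale the median gene shifted by 0.34 here, and 86.1% of calls were higher, against 47.8% with TMM. Paired, Gclm (-0.48, adjusted p = 0.0271) and Prdx1 (0.42, adjusted p = 0.0458) passed as well, with 20.1% of genes called. The Gclc call against cytokines was lost in DESeq2 (0.053) and without cytokines replicate 1 (0.074) or cytokines plus NMMA replicate 1 (0.11). That against untreated was lost in DESeq2 (0.093), at 5% mitochondrial UMIs (0.099) and without untreated replicate 1 (0.060) or 2 (0.077) or cytokines plus NMMA replicate 1 (0.16).

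δ-Cells, which secrete somatostatin, had 12 cells in cytokines replicate 2 and 6 in replicate 1, which was left out, so each value with cytokines rests on 1 library that is assumed to vary as the others do. Hmox1 stood at 80.8 there, against 12.4 and 32.1 untreated and 23.9 and 28.8 with cytokines plus NMMA (log2 over untreated 1.93, SE 0.56, adjusted p = 0.0458). That call was lost in DESeq2 (0.48) and without untreated replicate 1 (0.22) or either library of cytokines plus NMMA (0.061 and 0.079), and the change was 2.77 without untreated replicate 2. Txn1 stood at 841 with cytokines and 921 and 959 with cytokines plus NMMA, against 306 and 304 untreated (log2 1.47, SE 0.26, adjusted p = 0.000987, and 1.63, SE 0.22, adjusted p = 2.33e-05). So in δ-cells Txn1 was high with cytokines with or without NMMA. These 2 of 8 targets tested were called with cytokines, among 5.92% of 9610 genes, and Txn1 alone with cytokines plus NMMA against untreated, among 8.76%. Between cytokines plus NMMA and cytokines no target was called (2.64% of genes).

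**Figure D4:**
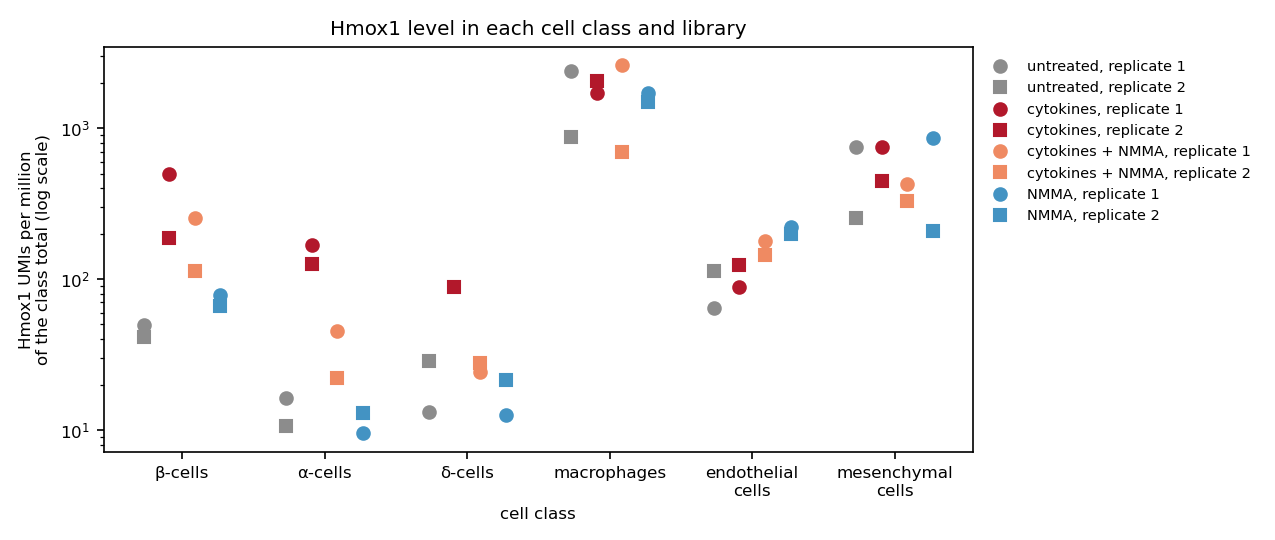
Hmox1 in 6 islet cell classes, as CPM of all UMIs of the class with no TMM scaling, on a log axis, for each library with at least 10 cells of the class. The mean untreated level is 13.4 CPM in α-cells, 45.5 in β-cells and 1639.8 in macrophages, and untreated and cytokine libraries stand apart in α- and β-cells and overlap in macrophages and endothelial cells.

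On the scale of all UMIs of a class, untreated Hmox1 averaged 13.4 ± 3.92 CPM (SD, n = 2) in α-cells, 20.9 ± 11.1 in δ-cells, 45.5 ± 5.90 in β-cells, 89.0 ± 35.0 in endothelial cells, 504 ± 352 in mesenchymal cells and 1639.8 ± 1089 in macrophages. α- and δ-cells lay within their spread of each other, as did mesenchymal cells and macrophages. With cytokines β-cells reached 340.2 ± 218 and α-cells 147 ± 29.3, and macrophages stood at 1880.1 ± 234. The same scale across classes is a description, with no test.

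Macrophages, which clear heme and iron from other cells, did not show the Hmox1 rise. Their levels were 2378 and 886 untreated, 1788 and 2265 with cytokines, 2819 and 736 with cytokines plus NMMA, and 1724 and 1668 with NMMA alone. The 2 untreated libraries differed more from each other than the groups did (log2 with cytokines 0.32, SE 0.79, adjusted p = 0.923). Prdx1 rose with cytokines from 7370.1 and 3689.6 to 16647 and 14435 (log2 1.49, SE 0.32, adjusted p = 0.0229). Txn1 rose from 912 and 1094 to 1703 and 2375 (log2 1.02, SE 0.23, adjusted p = 0.0184), and stood at 2193 and 1919 with cytokines plus NMMA, where it was the 1 target above untreated (log2 1.03, SE 0.23, adjusted p = 0.0123) among 6.46% of genes. Slc7a11 stood at 85.9 and 31.2 untreated and at 221 and 159 with cytokines (log2 1.80, adjusted p = 0.137).

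These 2 of 9 targets tested were called in macrophages, among 4.62% of 5156 genes, and with NMMA added to cytokines, where 0.116% of genes were called, none was. Paired, Slc7a11 (1.81, adjusted p = 0.00328) rose and Gclc fell (-1.55, adjusted p = 0.0438), making 4, among 8.86% of genes. Prdx1 lost its call without any 1 of cytokines replicate 1 (0.22) or 2 (0.12), untreated replicate 2 (0.082) or NMMA alone replicate 1 (0.051) and on the total scale (0.057), and Txn1 without untreated replicate 1 (0.16) or 2 (0.059) or cytokines replicate 2 (0.16). Without untreated replicate 1 the Prdx1 rise was 2.11. Against untreated, Txn1 with cytokines plus NMMA missed the threshold without untreated replicate 1 (0.14) or cytokines plus NMMA replicate 1 (0.094).

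In endothelial cells, none of the 10 targets passed with cytokines, while 6.38% of 7503 genes did (72.9% of them higher, and 55.8% on the total scale). An unadjusted p under 0.05 was found for 1269 of the 7503 genes and for 4 targets, all higher. These were Gclm (171 and 238 untreated, 323 and 411 with cytokines, adjusted p = 0.0841), Nqo1 (59.5 and 57.7, then 79.4 and 141, adjusted p = 0.0879), Txnrd1 (adjusted p = 0.117) and Txn1 (adjusted p = 0.227). Paired, Gclm (0.85, adjusted p = 0.0128), Nqo1 (0.97, adjusted p = 0.0265) and Txnrd1 (0.70, adjusted p = 0.0297) passed, among 10.4% of genes. Hmox1 stood at 61.4 and 109.8 untreated, 94.3 and 138 with cytokines, 195 and 166 with cytokines plus NMMA and 205 and 194 with NMMA alone. The difference between cytokines plus NMMA and untreated, 1.04 (SE 0.30, adjusted p = 0.0422, 6.61% of genes called), was lost in DESeq2 (0.16), on the total scale (0.12) and without untreated replicate 1 (0.40), either library of cytokines plus NMMA (0.16 and 0.12) or either of NMMA alone (0.055 and 0.056). NMMA alone was above untreated by 1.20 (SE 0.28), where no gene passed (unadjusted p = 0.00052).

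In mesenchymal cells, Srxn1 rose with cytokines from 159.9 and 131 to 916 and 452 (log2 2.22, SE 0.49, adjusted p = 0.0494), the 1 target of 9 tested that passed, among 1.84% of 5271 genes. Its call was lost on the total scale (0.069) and without cytokines replicate 1 (0.36), untreated replicate 1 (0.23) or untreated replicate 2 (0.33). RLE size factors (0.052), removed doublets (0.053), 5% mitochondrial UMIs (0.061) and leaving out NMMA alone replicate 2 (0.0504) ended it too. Gclm (313 and 201 untreated, 1040.2 and 827 with cytokines) and Txnrd1 (238 and 325, then 769 and 753) passed when paired (adjusted p = 0.0206 and 0.0246, 3.28% of genes called). Other targets stood apart between the groups as well and passed in neither fit. Prdx1 averaged 1353 ± 300 CPM (SD, n = 2) untreated and 8566 ± 224 with cytokines, and Slc7a11 80.3 ± 21.1 and 758 ± 264. With cytokines plus NMMA the 2 libraries differed widely, as for Prdx1 at 1422 and 9953, and no target was called against cytokines or against untreated, where 0% and 1.97% of genes were. Hmox1 was at 762 and 247 untreated and 842 and 508 with cytokines (log2 0.42, SE 0.68, adjusted p = 0.955).

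Whether β-cells differed from the non-endocrine cells in their cytokine response was tested directly. Hmox1 rose by a log2 of 2.53 more in β-cells than in macrophages (SE 0.55, adjusted p = 0.024) and by 2.31 more than in endothelial cells (SE 0.38, adjusted p = 8.28e-06). Prdx1 and Txn1 changed less in β-cells than in macrophages, with differences of -1.20 (SE 0.23, adjusted p = 1.21e-05) and -0.90 (SE 0.26, adjusted p = 0.0118), and Gclc differed by 1.76 (SE 0.52, adjusted p = 0.018). These 4 of 10 targets were called against macrophages, among 6.03% of genes, and 1 of 10 against endothelial cells, among 6.31%. Against macrophages the median gene differed by a log2 of 0.35 toward β-cells, with 5.22% of genes called higher and 0.812% lower. Against endothelial cells the median was 0.058. The Hmox1 difference from endothelial cells held in every alternative run. That from macrophages was lost on the total scale (0.26), with RLE size factors (0.35), without predicted doublets (0.33) and without cytokines plus NMMA replicate 2 (0.12) or NMMA alone replicate 2 (0.33). The Gclc difference was lost in 8 alternatives, the Txn1 difference without untreated replicate 1 (0.38) or cytokines replicate 2 (0.35) and with no filter on low counts (0.052), and the Prdx1 difference without untreated replicate 2 (0.091).

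**Figure D5:**
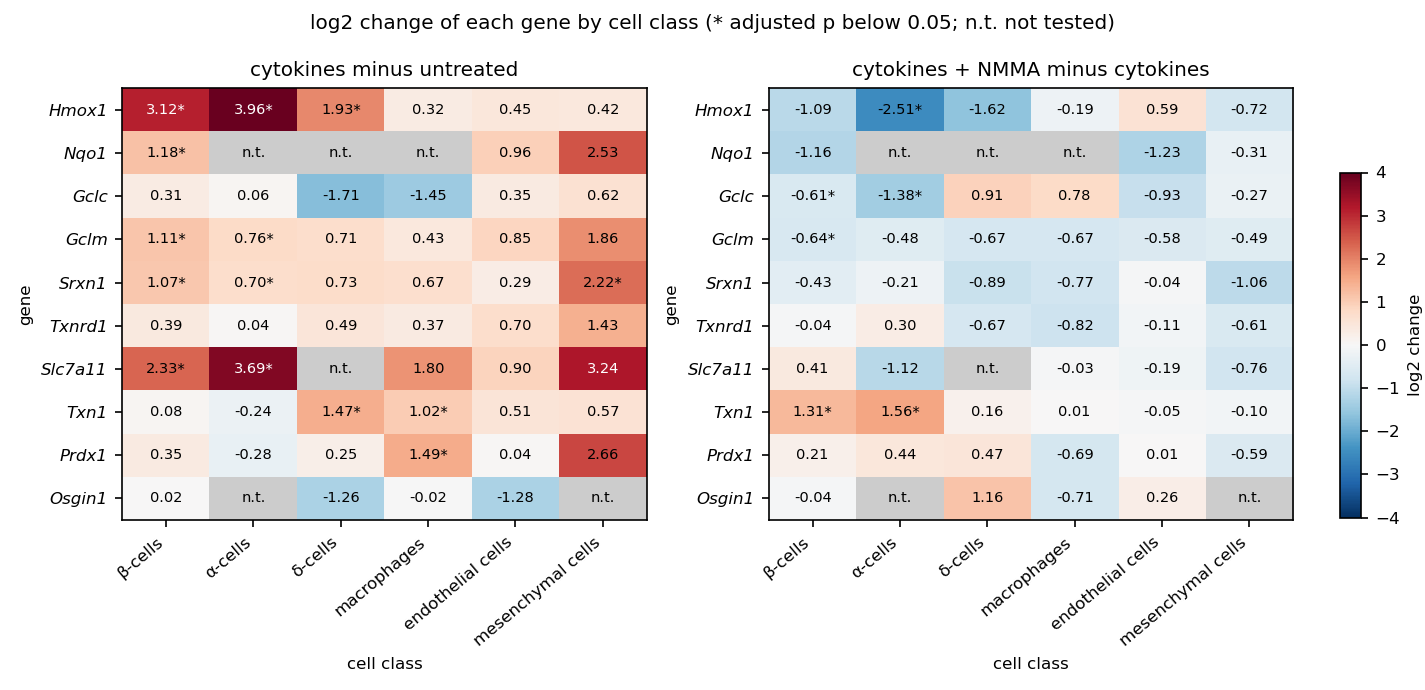
Heat map of the log2 change of each target (rows) in 6 cell classes (columns), with cytokines against untreated islets on the left and with cytokines plus NMMA against cytokines on the right; colour and number give the change, a star marks an adjusted p under 0.05, and grey cells were not tested. Hmox1 changed by 3.12 in β-cells and 3.96 in α-cells with cytokines and had a value of 0.32 in macrophages, and Txn1 rose in β- and α-cells when NMMA was added.

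Over the 8 β-cell sums, the genes whose log2 level ran most like that of Hmox1 were Hmces (Pearson r = 0.997), Chka (0.993), Anxa5 (0.990), Dedd (0.989) and Ybx1 (0.988). These coefficients describe 8 libraries of 4 groups that share their pools and depth. Of the targets, Gclm was the most like Hmox1, with r = 0.957 and 116 genes of any kind above it. Srxn1 followed at 0.866, Slc7a11 at 0.859, Prdx1 at 0.792, Nqo1 at 0.753 and Txnrd1 at 0.650. Gclc at 0.343, Txn1 at 0.308 and Osgin1 at -0.106 were the least like it.

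The regulators of the pathway moved with cytokines in β-cells: 7 of 10 rose and none fell, with a median log2 change of 0.75. Nfe2l2, which encodes Nrf2, rose by 0.42 (SE 0.15, adjusted p = 0.0492). Its rival at the DNA, Bach1, rose by 0.89 (SE 0.18, adjusted p = 0.00384) and fell by 0.75 when NMMA was added (SE 0.18, adjusted p = 0.0227). The small Maf partners Maff, Mafk and Mafg rose by 2.34, 2.20 and 0.74, the autophagy receptor Sqstm1, which binds Keap1, by 2.23, and the related factor Nfe2l1 by 0.76. Keap1 (0.17, adjusted p = 0.379), Cul3 (-0.31, adjusted p = 0.104) and Rbx1 (0.08, adjusted p = 0.720), which make up the ligase that marks Nrf2, did not pass. In α-cells 6 of 10 regulators rose with cytokines, where 13.9% of all genes did, and 4 fell when NMMA was added, where 5.90% did: Bach1, Mafg, Mafk and Sqstm1.

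Of 30 other Nrf2 targets, 26 were tested in β-cells, and with cytokines 9 rose and 5 fell (median log2 0.02). The aldo-keto reductase Akr1b8 rose by 3.46 (SE 0.38), the exporter Abcc1 by 1.52 (SE 0.18) and the ferritin heavy chain Fth1 by 1.38 (SE 0.14). The glutathione transferase Gsta3 fell by 2.28 (SE 0.79, adjusted p = 0.040). Gsta3 was hardly detected, at 0.612 and 0.667 CPM untreated and 0.0767 and 0.202 with cytokines, so its change rests on few UMIs. Abcc1 and Fth1 fell again when NMMA was added (-0.62 and -0.58, adjusted p = 0.0359 and 0.0229). Of 15 genes of heme handling and paralogues of the targets, 4 rose and none fell, among them Slc3a2, the partner chain of Slc7a11 (1.40, SE 0.22), Prdx5 (0.77), Prdx6 (0.54) and the mitochondrial Txn2 (0.40). Prdx6 fell when NMMA was added (-0.86, adjusted p = 0.00962).

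Slc7a11 is also a target of Atf4, and 11 of 15 genes of a list of the integrated stress response, Slc7a11 and Slc3a2 included, rose while 1 fell, among them Atf3 (3.75), Nupr1 (2.87) and Trib3 (2.22). With cytokines plus NMMA against untreated, 13 of the 15 were higher and none lower, where 12.9% of all genes were higher. Of the heat shock genes, 9 of 12 rose with cytokines and none fell, among them Dnajb1 (2.18), Hsph1 (2.11), Hspa8 (2.09) and Hsp90aa1 (1.84). When NMMA was added, 6 of these 12 fell, where 8.98% of all genes did, among them Hspa8 (-1.41, adjusted p = 0.0111) and Hsp90aa1 (-1.23, adjusted p = 0.00553). Nos2, the source of the nitric oxide, stood at 0.028 and 0 in untreated β-cells (1 and 0 UMIs), 194 and 162 with cytokines, and 461 and 463 with cytokines plus NMMA. The lists were chosen with earlier results of these data known, and their counts with cytokines are read beside the 23.7% of genes called higher and the 22.4% called lower with cytokines.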

How the data were processed

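Dissociated mouse islet cells were profiled by droplet-based single-cell RNA sequencing with a 3′ kit, which the labels and the study's methods give as different versions. The authors deposited counts of UMIs, not normalized, in sparse matrices written by Cell Ranger 3.0.0 for replicate 1 (31053 genes) and 6.0.0 for replicate 2 (32285 genes), and the submitters' processing notes name the build mm10. The 30406 genes in both were used. The study's filters (at least 200 genes, at most 5500 genes in replicate 1 or 6500 in replicate 2, and at most 10% mitochondrial UMIs) left 10876 of 17426 barcodes here, 1 more than the study's own number. Cells were normalized, clustered (scanpy 1.11.5, 2000 variable genes, 30 components, Leiden resolution 1, 22 clusters) and named from marker lists, so class names are rebuilt and can differ from the study's. Of 3 clusters that stayed unnamed (1608 cells, 14.8%), 2 held low-UMI insulin cells. Predicted doublets (354, 3.25%) were kept and removed as an alternative.

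Raw UMIs were summed per class and library of at least 10 cells, which the authors' per-cell test does not do, and tested with edgeR 4.0.16 (TMM, filterByExpr, robust quasi-likelihood F test, 4 groups in 1 fit, Benjamini-Hochberg over all genes tested). Classes were compared in their cytokine response with the library as a block. β-Cells were divided by Hmox1 after thinning to 10000 UMIs. Since each replicate was 1 pool of islets divided over the 4 groups, libraries with the same number are paired; their deviations from the group means correlated at 0.604 to 0.702 in β-cells and at 0.120 or more in every class. The fit without the pairing is the main one and that with it an alternative, given where it changes a call. DESeq2 1.42.0, other scalings, filters and left-out libraries were the other alternatives. P-values of the main fit measure the spread between 2 pools per group, and the same 2 pools stand behind all groups. In the fits with the library as a block they measure differences within libraries. The 8 libraries there also come from 2 pools. The test scripts were tested on simulated data with few changed genes. A log2 change of 1 was recovered for 49% of such genes in β-cells and 17.3% in α-cells. The share was 11.7% in macrophages and in endothelial cells, 3.16% in δ-cells and 0% in mesenchymal cells. A change of 2 was recovered for 90.9% in β-cells and 9.89% in mesenchymal cells. A target that did not pass in the smaller classes is therefore not shown to be unchanged.

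The members and the lists were chosen with earlier results of these data known. Named genes are all 10 members, every regulator tested, the 4 genes of each other list with the largest change among those called in β-cells with cytokines and moved alike in both replicates, the 5 genes most like Hmox1, and Nos2; genes named for the comparison within β-cells, and those that fell in α-cells, were picked for passing it. Promoter sequences are from RefSeq (GRCm38.p6) and positions from GENCODE M21.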

Additional observations from a re-analysis of the deposited data

Results flagged for a closer look

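The cytokine response of 4 targets differed between β-cells and macrophages, and that of 1 target between β-cells and endothelial cells, by the test of the difference itself with the library as a block. Hmox1 changed by a log2 of 2.53 more in β-cells than in macrophages and by 2.31 more than in endothelial cells. The median gene differed by 0.35 and 0.058 in these 2 tests. Gclc differed by 1.76 from macrophages, where its own change of -1.45 did not pass without pairing. Txn1 differed by -0.90 and Prdx1 by -1.20 from macrophages, where both rose. The macrophage sums rest on 28 to 72 cells per library and the endothelial sums on 14 to 52, against 447 to 1662 β-cells.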

How the results depend on the processing

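Counts of targets called with cytokines against untreated, the main count first, moved as follows. With the replicate block (the pairing of libraries by pool) the count went from 5 to 8 in β-cells, 2 to 4 in macrophages, 0 to 3 in endothelial cells and 1 to 3 in mesenchymal cells; for cytokines plus NMMA against cytokines it went from 3 to 6 in β-cells and from 3 to 5 in α-cells, for cytokines plus NMMA against untreated from 3 to 7 in β-cells, and for NMMA alone from 0 to 1. The block ended no call, and beyond those given in the text it added no other call except Gclc and Prdx1 in δ-cells, Slc7a11 in α-cells and Slc7a11 and Prdx1 in macrophages with cytokines plus NMMA against untreated. DESeq2 gave 6 in β-cells for cytokines plus NMMA against untreated, 1 of 2 in δ-cells and 4 in mesenchymal cells. Scaling by total UMIs gave 1 in β-cells and 5 in α-cells for cytokines plus NMMA against cytokines, 1 in macrophages and 0 in mesenchymal cells, where RLE size factors, removed doublets and at most 5% mitochondrial UMIs also gave 0. That mitochondrial limit gave 2 in α-cells with cytokines (Srxn1 lost, Slc7a11 below the filter) and 2 for β-cells against endothelial cells. With no filter other than 1 UMI the counts were 5 and 5 for cytokines plus NMMA in β-cells against cytokines and against untreated, 1 for NMMA alone, 1 in endothelial and 5 in mesenchymal cells. Against macrophages the count of 4 fell to 2 with total UMIs, RLE size factors and doublets removed. Without the heat shock-led cluster (chosen after seeing the data) it was 6 in β-cells for cytokines plus NMMA against untreated. Calls over all genes moved with the setting as well. For cytokines plus NMMA against cytokines in β-cells, the total scale took them from 1318 to 2355 higher and from 1147 to 400 lower. Shares of all genes under each setting are not given beside the counts here and below. These counts are therefore not read as a trait of the targets. The cause of these moves was not tested.

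Leaving out 1 library at a time gave, with cytokines, 3 to 5 in β-cells, 1 to 4 in α-cells, 1 to 2 in δ-cells, 0 to 3 in macrophages, 0 to 1 in endothelial and 0 to 3 in mesenchymal cells. It gave 1 to 4 in β-cells and 2 to 3 in α-cells for cytokines plus NMMA against cytokines and 0 in the other classes, 2 to 5 for cytokines plus NMMA against untreated in β-cells and 0 for NMMA alone. It gave 2 to 4 against macrophages, 1 to 2 against endothelial cells and 4 to 6 within β-cells by Hmox1. δ-Cells could not be fitted without their single cytokine library. No called change turned its direction in any alternative. Mesenchymal sums rest on 13 to 50 cells per library.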

Other observations

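Hmox1 was also counted in 3 sets of cells that were left out of the classes. PP-cells, 105 in all, held 3 and 10 Hmox1 UMIs in the untreated libraries of replicates 1 and 2 (38 and 26 cells) and 0 and 1 with cytokines (3 and 2 cells). The first of the unnamed clusters of low-UMI insulin cells (782 cells) held 3 and 8 UMIs untreated (17.2 and 25.9 CPM) and 0 and 5 with cytokines (0 and 67.2 CPM). The other such cluster (737 cells) held 9 and 40 Hmox1 UMIs with cytokines (508 and 240 CPM in 16 and 210 cells), 7 and 45 with cytokines plus NMMA (217 and 117 CPM in 31 and 468 cells), and 1 UMI in the 6 cells of untreated replicate 2, with no cell in untreated replicate 1. None of the 3 was compared between groups. With both low-UMI clusters counted as β-cells, an alternative chosen after seeing the data, the numbers of targets called in the 4 β-cell comparisons were 5, 3, 3 and 0, as without them.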
